A study of Mus musculus with 27 samples.

Results

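Knockdown of HDAC3 in Ba/F3 cells was compared with a hairpin that has no target, over 8 of the 27 RNA-seq libraries of the series. The libraries were chosen by their labels alone: 3 carry a lentivirus with a short hairpin against HDAC3 and 5 carry a lentivirus with a no-target hairpin. Ba/F3 is a mouse pro-B line that needs the cytokine IL3. All 8 cultures were grown in 1 ng/mL of IL3 and kept under puromycin. They were then held without IL3 for 6 h and restimulated for 30 min with 10 ng/mL of it. The other libraries, which carry hairpins against LSD1, STAT5A or STAT5B or are wild type with and without IL3, are used here only to share the estimate of spread and to show where HDAC3 knockdown differs. PolyA RNA of bulk cultures of a single line was measured, so fewer cells of a type and less RNA per cell cannot be told apart. The labels call the libraries biological replicates and do not say whether they came from separate transductions, so p-values measure the spread between these libraries.

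HDAC3 is a histone deacetylase that works as the enzyme of NCoR co-repressor complexes. It removes acetyl groups from histone tails near genes to which unliganded nuclear receptors or other repressors have brought the complex, and its activity depends on binding to the co-repressor. Granzymes, which appear in the results, are serine proteases stored in the granules of cytotoxic lymphocytes and, in the case of granzyme B, also made by some mast cells and basophils.

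The HDAC3 knockdown libraries held 5479527 to 12181840 reads counted in genes and the no-target libraries 6928758 to 17614947. HDAC3 knockdown replicates 1 and 2 and no-target replicates 1 and 3 had 14.0 to 19.8% of their reads outside genes, against 9.46 to 11.2% in the other 4 libraries of the comparison. The libraries with the higher share are called outside-rich below. They lay at -49.3 to -25.7 on the main principal component of the 8 libraries and the other 4 at 32.7 to 51.3, and this component carried 53.8% of the variance. Values within and without the outside-rich libraries are given beside the results. Levels are CPM, reads per 1e6 reads counted in genes, with library sizes scaled by TMM factors.

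Hdac3 itself (chromosome 18, 37935844 to 37955016, minus strand, GRCm38) had 83.9, 46.0 and 44.8 CPM in HDAC3 knockdown replicates 1 to 3, against 119, 156, 98.0, 143 and 142 CPM in no-target replicates 1 to 5. All 3 knockdown libraries lay below all 5 no-target libraries, and replicate 1 kept the most. Hdac3 fell by 1.18 on the log2 scale (SE 0.18, adjusted p = 0.0130, edgeR quasi-likelihood test with Benjamini-Hochberg adjustment over all genes), and the exact two-sided permutation test, with 56 arrangements of the libraries, gave p = 0.0357, the smallest it can give. The Hdac3 left in replicates 1, 2 and 3 was 63.7, 34.95 and 34.1% of the no-target mean. Among the no-target libraries, the 2 outside-rich ones had the lowest Hdac3, with a mean of 108 CPM against 147 CPM in the other 3. Measured against no-target libraries of their own kind, replicates 1, 2 and 3 kept 77.4, 42.4 and 30.5%. Either way, replicate 1 is the library with the weakest knockdown.

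Apart from Hdac3, the genes that passed the test were those of 2 neighbouring granzymes, Gzmb and Gzmc, both higher in the HDAC3 knockdown. Of 12073 genes tested, 3 were called at an adjusted p under 0.05 (0.0248%), 2 of them higher (0.0166%) and 1 lower (0.00828%). Without adjustment, 687 genes (5.69%) had a p under 0.05, of which 300 were higher (2.48%) and 387 lower (3.21%) in the knockdown. In 296 genes (2.45%) the 3 knockdown libraries did not overlap the 5 no-target libraries.

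Gzmb, the gene of granzyme B, had 169, 866 and 1118 CPM in HDAC3 knockdown replicates 1 to 3, against 2.03, 1.54, 3.42, 26.6 and 7.78 CPM in no-target replicates 1 to 5. Every knockdown library lay above every no-target library, and the highest no-target library was still well below knockdown replicate 1. Its log2 fold change was 6.35 (SE 1.11, adjusted p = 0.0255, edgeR). Gzmb averaged 717 ± 491 CPM in the HDAC3 knockdown and 8.28 ± 10.6 CPM with the no-target hairpin (SD, n = 3 and 5). The difference in mean log2 CPM was 7.11 within the outside-rich libraries and 7.30 within the others, so it was as large in either kind.

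Gzmc, the gene of granzyme C, had 0.372, 14.97 and 9.66 CPM in HDAC3 knockdown replicates 1 to 3. It had no read in no-target replicates 1 to 4 and 0.144 CPM in replicate 5. Replicates 2 and 3 carried nearly all of its reads, and replicate 1 held 3 reads, barely above the no-target libraries. A count of 0 allowed up to 0.170 to 0.405 CPM in those 4 no-target libraries (3 counts, counting error only). Over each group, 198 reads in the knockdown stood against 2 with the no-target hairpin, a ratio of 218 after scaling for depth (95% interval 59.5 to 1812, counting error only). The adjusted p of Gzmc was 0.0255 by edgeR and 0.477 by DESeq2.

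The calls of both granzymes depend on single libraries. With no-target replicate 1, 2, 3 or 5 left out in turn, the adjusted p of Gzmb was 0.0648, 0.131, 0.105 and 0.187 (edgeR), and without no-target replicate 4 it was 0.0238. Without HDAC3 knockdown replicate 2 or 3 it was 0.126 and 0.109, while without replicate 1 it was 0.00689. Gzmc passed without knockdown replicate 1 (0.00125) and in no other such fit (0.0648 to 0.187). The log2 fold change of Gzmb stayed between 5.86 and 7.53 in these fits. Without the outside-rich libraries Gzmb did not pass (6.48, adjusted p = 0.226) and Gzmc did (adjusted p = 0.0325). Hdac3 missed the threshold without knockdown replicate 2 (adjusted p = 0.126), knockdown replicate 3 (0.109) or no-target replicate 2 (0.0533). In the fit of the 8 libraries alone no gene was called, with 302 genes at an unadjusted p under 0.05, and DESeq2 on all 27 libraries called 8.

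**Figure D1:**
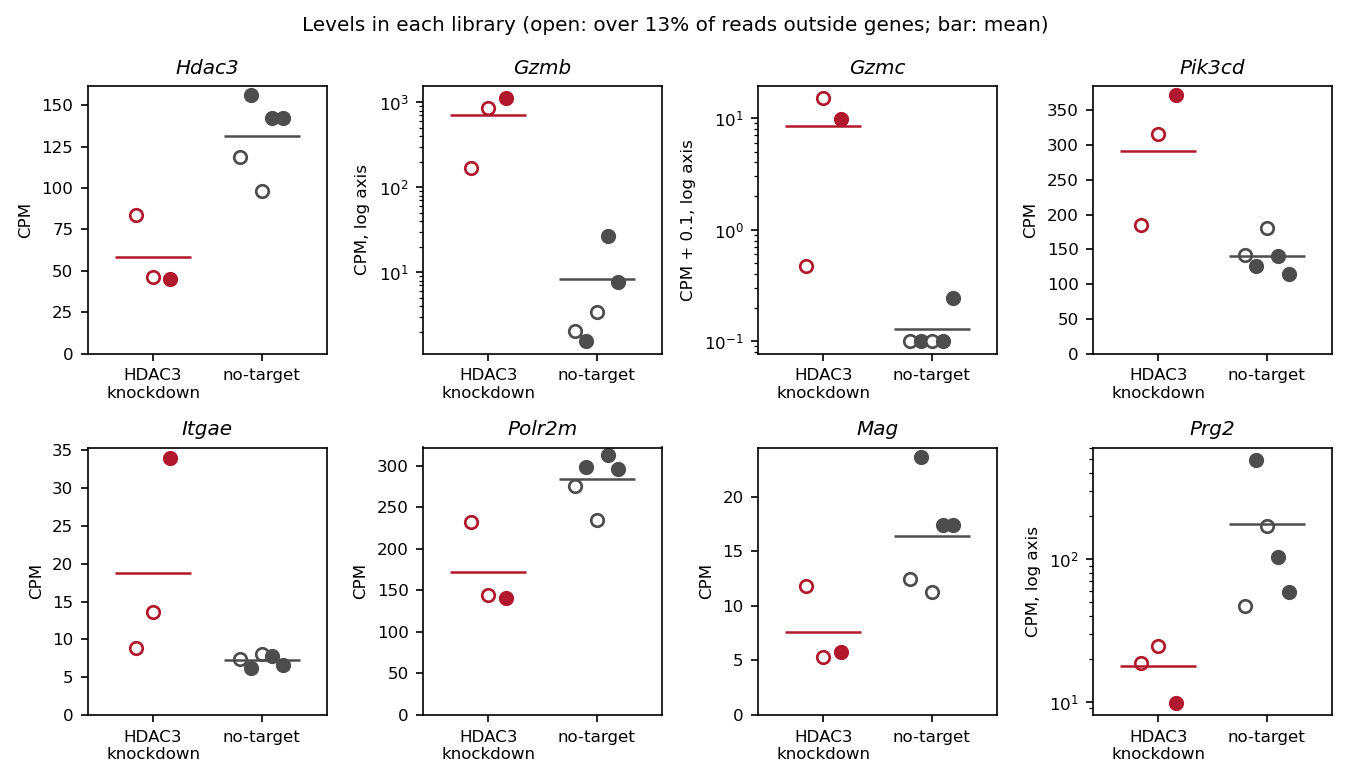
Levels of 8 genes in CPM, in the HDAC3 knockdown (left, red, n = 3) and with the no-target hairpin (right, grey, n = 5). Each point is a library, open for the outside-rich ones, bars are means, and Gzmb, Gzmc and Prg2 are on log axes. Hdac3 is lower and Gzmb higher in every knockdown library than in any no-target library, and knockdown replicate 1 is the one nearest to the no-target libraries in most panels. Pik3cd, Itgae, Polr2m and Mag were called in a fit on the fraction of Hdac3 lost, given below, which favours that order.

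Gzmb and Gzmc lie beside each other on chromosome 14 and are read from the same strand. Gzmb spans 56258838 to 56262260 and Gzmc 56231441 to 56234656 (minus strand, GRCm38, GENCODE vM21), with 27.6 kb between their start sites. The 250 bases before each RefSeq start site (GRCm38.p6, minus strand) are shown because these are the promoters of the genes that moved together. TGANTCA, the motif bound by AP-1 factors, is in capitals.
Gzmb, chr14:56262335-56262584: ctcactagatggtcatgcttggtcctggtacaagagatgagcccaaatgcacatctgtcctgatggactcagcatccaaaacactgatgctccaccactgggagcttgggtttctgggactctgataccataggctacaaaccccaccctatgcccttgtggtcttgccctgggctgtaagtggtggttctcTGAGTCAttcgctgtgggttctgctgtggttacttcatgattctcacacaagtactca
Gzmc, chr14:56234658-56234907: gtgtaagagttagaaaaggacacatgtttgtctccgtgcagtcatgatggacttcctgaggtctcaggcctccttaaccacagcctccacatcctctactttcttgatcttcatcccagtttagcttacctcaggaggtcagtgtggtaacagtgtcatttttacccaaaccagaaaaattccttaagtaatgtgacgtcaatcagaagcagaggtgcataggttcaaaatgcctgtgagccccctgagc
The window of Gzmb holds TGAGTCA, with its first base 58 bases before the start site. TTCNNNGAA, the motif bound by STAT5, is in neither of the printed stretches. Both motifs were searched on both strands. The 300-base windows of RefSeq promoters reach 50 bases past the start site. There Gzmb also holds TTCNNNGAA, with its first base 37 bases past the RefSeq start site, and Gzmc holds neither motif. The RefSeq start site of Gzmb lies upstream of the GENCODE one at 56262260, so this TTCNNNGAA lies before the GENCODE start. Of the 8999 windows of 300 bases of tested genes, 5.09% hold TGANTCA and 7.22% hold TTCNNNGAA.

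No other gene of the cluster around Gzmb and Gzmc passed the test, and most of its members had no or few reads. Of the annotated genes within 300 kb of Gzmb, 17 are also in the count data, and 6 of these had enough reads to test. Gzmd, Gzme, Gzmf and Gzmg, the granzyme genes between Gzmc and Ctsg, had 0 reads in all 8 libraries, and Gzmn had 1 read. Ctsg, the gene of cathepsin G, averaged 4.52 ± 4.81 CPM in the knockdown and 14.6 ± 16.9 CPM in no-target libraries (log2 fold change -1.67, unadjusted p = 0.155). Mcpt8, a basophil protease, averaged 2.17 ± 0.486 CPM and 6.79 ± 7.56 CPM (log2 fold change -1.62, unadjusted p = 0.149). Neither passed the test. Granzymes are close copies of each other, and how reads that fit several of them were counted is not given in the sources used here, so a part of the Gzmc count could belong to Gzmb.

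**Figure D2:**
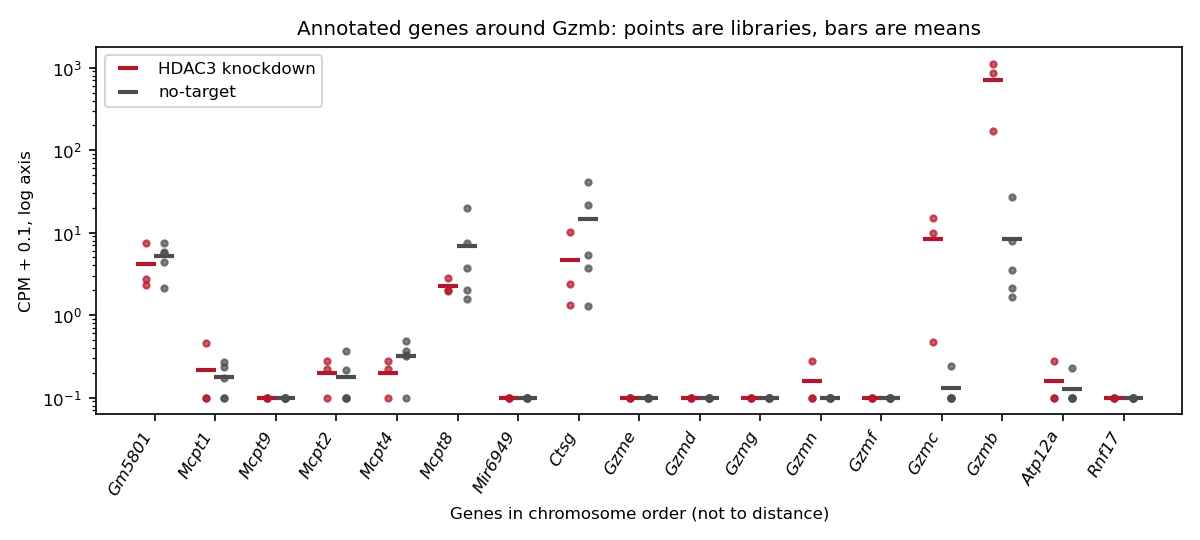
Levels (CPM + 0.1, log axis) of the 17 annotated genes within 300 kb of Gzmb that are in the count data. Genes are in chromosome order and not to distance, with the HDAC3 knockdown left of each pair (red) and the no-target hairpin right (grey). Points are libraries and bars are means; Gzmb and Gzmc are the genes in which the 3 knockdown libraries lie above the 5 no-target libraries.

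No other granule gene of cytotoxic cells passed the test. Of 19 genes on a list of granzymes and cytotoxic granule proteins, 10 were tested, and 2 were called higher (0.0166% of all genes were) and 0 lower, with 5 positive and 5 negative log2 fold changes and a median of 0.05, against 0.00 over all genes tested. Prf1, the gene of the pore protein perforin, and Gzma and Gzmk had no read in any of the 8 libraries. Srgn, whose product packs granule proteases, had 468, 711 and 1139 CPM in the knockdown and 484 to 1074 CPM with the no-target hairpin. Lamp1, a membrane protein of lysosomes and granules, had 226 to 407 CPM in the knockdown and 272 to 391 CPM with the no-target hairpin. Ctsc, the protease that activates granzymes, had 64.9 to 97.9 CPM and 63.3 to 83.3 CPM, and Serpinb9, the inhibitor of granzyme B, 4.34 to 5.97 CPM and 4.54 to 8.20 CPM. The groups overlapped in these 4 genes. Nkg7, a granule membrane protein of cytotoxic cells, had 1.24, 3.52 and 15.8 CPM in knockdown replicates 1 to 3 and 0.634 to 5.09 CPM with the no-target hairpin (unadjusted p = 0.00941, not called).

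Markers of T and NK cells were near 0 in both groups. Ncr1, Klrk1, Tbx21 and Cd2 had no read in any library, and the 20 markers of the list summed to 10.7 to 22.6 CPM in the knockdown and 10.4 to 17.9 CPM with the no-target hairpin. Cd3g, a chain of the T cell receptor complex, had 1.98, 1.94 and 6.85 CPM in the knockdown, against 0.946, 0.118, 0.507, 1.36 and 1.37 CPM with the no-target hairpin, without overlap (unadjusted p = 0.0108). Il2rb, the beta chain of the IL2 receptor, had 0.744, 1.59 and 1.32 CPM in the knockdown, against 1.62, 3.67, 3.93, 2.94 and 2.74 CPM with the no-target hairpin (unadjusted p = 0.00266). Neither was called. The labelled pro-B identity was checked in the same way. Cd79a (27.8 to 68.2 CPM in the knockdown, 24.2 to 51.1 CPM with the no-target hairpin) and Tcf3 were present. Cd79b, Ptprc and Ikzf1 were too, with means of 21.05, 367 and 5.35 CPM in the knockdown. With the no-target hairpin their means were 29.6, 357 and 6.64 CPM. Pax5, Ebf1, Vpreb1, Igll1, Rag1 and Il7r were at or near 0 in both groups, with 0 to 0.705 CPM, and 6 of the 23 genes on the B lineage list had enough reads to test. Gata2, a factor of mast cells and progenitors, had 438 to 922 CPM in the knockdown and 388 to 887 CPM with the no-target hairpin.

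Set beside the other groups of the series, Gzmb was highest in HDAC3 knockdown replicates 2 and 3. It had 0.327 to 8.89 CPM in LSD1, 3.12 to 149 CPM in STAT5A and 3.47 to 194 CPM in STAT5B knockdown libraries, and 1.17 to 2.64 CPM in stimulated and 0.433 to 1.41 CPM in deprived wild type. HDAC3 knockdown replicate 1, at 169 CPM, thus lay within the range of the STAT5B knockdown. Gzmb was 4.60 higher (log2, SE 0.83, adjusted p = 0.00379, edgeR) in the HDAC3 knockdown than in the mean of the other 3 knockdowns and 7.66 higher (SE 1.49, adjusted p = 0.0130) than in the LSD1 knockdown. Gzmc had no read in the LSD1 knockdown and 0 to 0.651 CPM in the STAT5A knockdown, and was 7.04 higher (log2, SE 0.90, adjusted p = 0.000941) than in the mean of the others. With a term for outside-rich libraries these differences were 5.66 for Gzmb (adjusted p = 0.0103) and 7.35 for Gzmc (adjusted p = 0.00187). Since the LSD1 group had no read of Gzmc, the edgeR sizes for Gzmc depend in part on the small prior count added in the fit. Without the term, DESeq2 gave a difference of 6.71 for Gzmc from the mean of the others, with a larger SE (2.18, adjusted p = 0.0216).

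**Figure D3:**
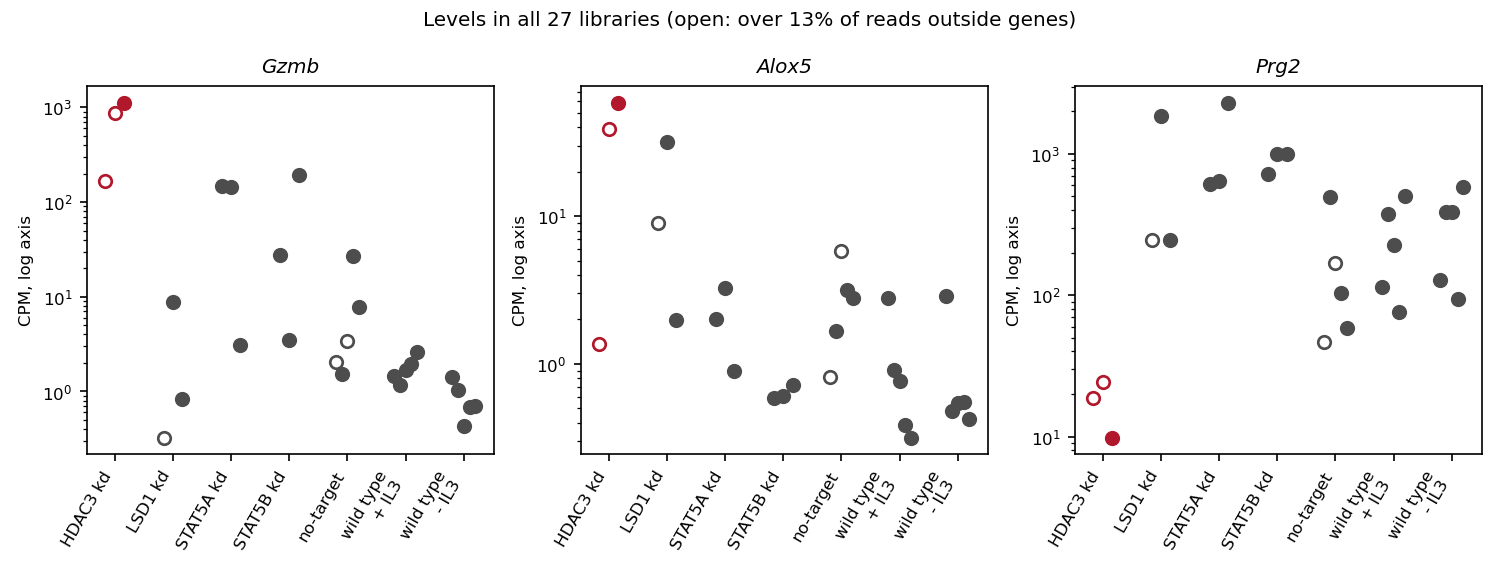
Levels of Gzmb, Alox5 and Prg2 (CPM, log axes) in all 27 libraries by group, HDAC3 knockdown first in red; kd is knockdown, and open points are libraries with over 13% of reads outside genes. The HDAC3 knockdown holds the 2 highest Gzmb and Alox5 values, and its 3 Prg2 values are the lowest of the series.

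Several other genes differed most in the 2 libraries with the least Hdac3. Pik3cd, the catalytic subunit of the PI3-kinase of leukocytes, had 184, 316 and 372 CPM in HDAC3 knockdown replicates 1 to 3, against 142, 125, 180, 140 and 115 CPM in no-target replicates 1 to 5. Itgae, the integrin chain also called CD103, had 8.81, 13.6 and 34.0 CPM in the knockdown, against 7.43, 6.28, 8.11, 7.75 and 6.62 CPM with the no-target hairpin. In both genes all knockdown libraries lay above all no-target libraries, with replicate 1 just above them. Their log2 fold changes were 1.05 (SE 0.21) and 1.38 (SE 0.27), each with an adjusted p of 0.0902 (edgeR), which did not pass.

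Polr2m and Mag were lower, also with replicate 1 nearest to the no-target libraries. Polr2m, a subunit associated with RNA polymerase II, had 232, 144 and 141 CPM in HDAC3 knockdown replicates 1 to 3, against 275, 299, 235, 314 and 296 CPM with the no-target hairpin. Mag, a myelin-associated lectin, had 11.8, 5.28 and 5.80 CPM in the knockdown, against 12.4, 23.6, 11.3, 17.4 and 17.4 CPM with the no-target hairpin. In Polr2m the groups did not overlap, while in Mag knockdown replicate 1 lay inside the no-target range. Their log2 fold changes were -0.72 (SE 0.16, adjusted p = 0.243) and -1.10 (SE 0.25, adjusted p = 0.261).

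A fit in which the knockdown enters as the fraction of Hdac3 lost in each library, chosen after the data were seen, called 7 genes, 4 higher and 3 lower. They were Hdac3, which defines the scale, Gzmc (adjusted p = 0.000422), Itgae (0.00390), Pik3cd (0.00529), Gzmb (0.00605), Polr2m (0.00839) and Mag (0.0114), all by edgeR. Leaving out replicate 1 gave 9 genes, the same 7 with Unc13d, whose product primes granules for release, and Alox5. Leaving out all outside-rich libraries, which sets knockdown replicate 3 alone against no-target replicates 2, 4 and 5 and assumes that a lone library varies like the other groups, gave 8 genes. Beside Hdac3, Gzmc, Csk and Syne3 these were Itgae (log2 fold change 2.30), Pik3cd (1.55), Mag (-1.74) and Polr2m (-1.10). Within the outside-rich libraries the differences in mean log2 CPM were smaller, at 0.49 for Itgae, 0.59 for Pik3cd and -0.48 for Polr2m. DESeq2 on all libraries also called Pik3cd, Itgae, Polr2m and Mag, with Hdac3, Gzmb, Fnbp1 and Mtx2. The order by Hdac3 rests on replicate 1 alone, since replicates 2 and 3 kept nearly equal amounts. Replicate 1 lay between the no-target mean and both other knockdown libraries in 745 of all tested genes (6.17%), in 178 of the 687 genes with an unadjusted p under 0.05 (25.9%) and in both granzymes. Among the 21 uncalled genes named for the smallest p-values without overlap it did so in 13. Cep19 (-0.92, -1.11 and -0.26 in replicates 1 to 3 on the log2 scale), Dnajc12, Myo1e and Prg2 were among those in which it did not. A small p, or no overlap, favours 3 differences of the same sign, which lying between requires. The higher shares in genes chosen in these ways are thus no test of a relation to Hdac3.

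**Figure D4:**
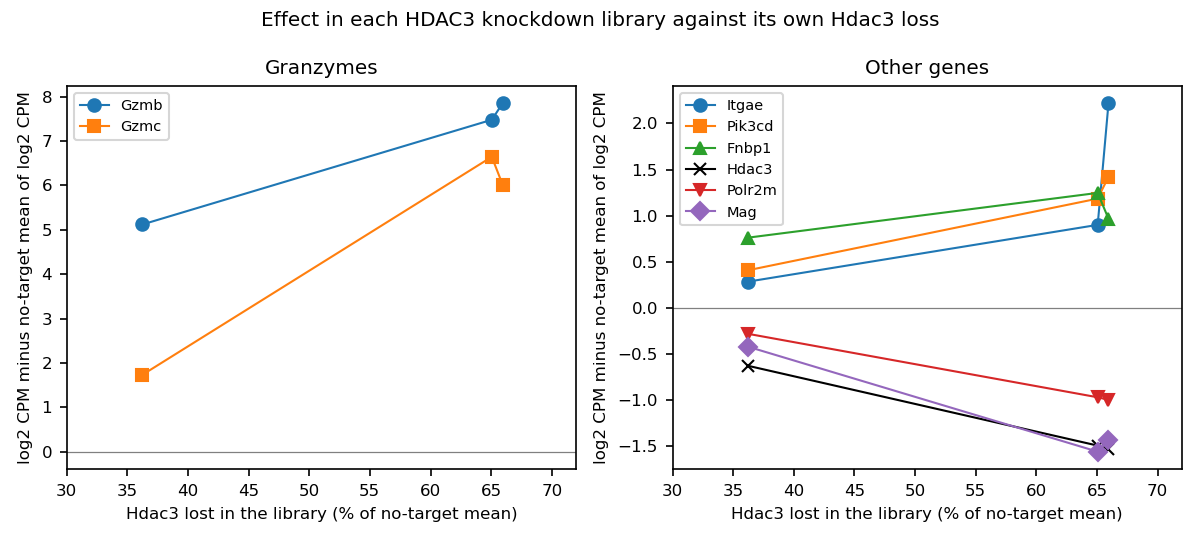
Difference of each HDAC3 knockdown library from the no-target libraries (log2 CPM minus the no-target mean of log2 CPM) against the Hdac3 lost in that library, as percent of the no-target mean, for the granzymes (left) and 6 other genes (right). Each gene has 3 points, for knockdown replicates 1, 2 and 3 from left to right. Replicate 1 is nearest to 0 in every gene, with Gzmb at 5.12, 7.48 and 7.85 and Polr2m at -0.28, -0.97 and -0.998. Apart from Hdac3, which sets the horizontal axis, the genes were picked among those of smallest p in the fit on Hdac3 loss. That choice favours this order, so the panels are no test of it.

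Alox5, the lipoxygenase that starts leukotriene synthesis, had 1.36, 38.8 and 58.8 CPM in HDAC3 knockdown replicates 1 to 3, against 0.811, 1.66, 5.83, 3.17 and 2.81 CPM with the no-target hairpin. Replicates 2 and 3 stood above every no-target library and replicate 1 within their range. Its log2 fold change of 3.52 (SE 0.86) did not pass (adjusted p = 0.309, edgeR), and without replicate 1 it was 4.08 (adjusted p = 0.0406). In the LSD1 knockdown Alox5 had 1.97 to 31.9 CPM. The difference between the HDAC3 and LSD1 knockdowns was 1.205 (log2, SE 0.94, adjusted p = 0.582), while that from the mean of the other 3 knockdowns was 3.64 (SE 0.72, adjusted p = 0.00609).

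Other genes without overlap between the groups did not pass the test against the no-target hairpin. Fnbp1, an F-BAR protein that bends membranes, had 149.98, 210.0 and 173 CPM in the knockdown, against 118, 64.3, 107, 84.7 and 78.6 CPM with the no-target hairpin. Its log2 fold change was 0.97 (SE 0.21, adjusted p = 0.165). Lfng, a glycosyltransferase that modifies Notch receptors, had 26.3, 30.3 and 57.3 CPM in the knockdown and 16.2 to 24.5 CPM with the no-target hairpin. Abca2, a lipid transporter of endosomes, had 747, 890 and 852 CPM in the knockdown and 224 to 605 CPM with the no-target hairpin. The log2 fold changes of Neb, Dennd3, Spred3, Txk and Ankrd39 were 0.61 to 1.37. Lfng differed from both the mean of the other knockdowns (log2 difference 1.31, SE 0.20, adjusted p = 0.00111, edgeR) and the LSD1 knockdown (1.31, SE 0.26, adjusted p = 0.0144).

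Stom, the membrane protein stomatin, had 7.82, 7.05 and 7.03 CPM in the knockdown, against 13.2, 22.6, 29.7, 19.0 and 18.1 CPM with the no-target hairpin, so its 3 knockdown values were nearly equal and below the rest (log2 fold change -1.49, SE 0.42, adjusted p = 0.430). In Sccpdh the log2 fold change was -0.64 (SE 0.15, adjusted p = 0.261), with 21.3 to 30.1 CPM in the knockdown and 31.8 to 46.0 CPM with the no-target hairpin. Both were lower than in the LSD1 knockdown, by a log2 difference of -2.43 for Stom and -0.90 for Sccpdh (adjusted p = 0.0113 each, edgeR). Cep19, Dnajc12, Pink1, Myo1e, Msrb2 and Asic1 also lay below all no-target libraries, with log2 fold changes of -0.87 to -0.62. Pink1 encodes the kinase that marks damaged mitochondria, and Myo1e a myosin of the cell cortex.

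No partner of HDAC3 passed the test. Of 10 genes on the list of its co-repressor complex, 9 were tested, and Hdac3 was the member called. Ncor1 had 351, 442 and 153 CPM in the knockdown, against 287, 148, 441, 152 and 157 CPM with the no-target hairpin, and the high values in both groups were those of outside-rich libraries. Tbl1xr1, a scaffold subunit, had 172, 292 and 393 CPM in the knockdown, against 133, 234, 200, 247 and 211 CPM in no-target libraries (log2 fold change 0.48, SE 0.22, adjusted p = 0.861). The log2 fold changes of Tbl1x, Gps2, Coro2a, Zbtb33 and Kdm4a lay between -0.06 and 0.79, with overlapping groups. Of 17 genes of other histone deacetylases and sirtuins, 15 were tested and none was called by edgeR or had an unadjusted p under 0.05 in it. Hdac1, another class I deacetylase, averaged 92.1 CPM in the knockdown and 93.5 CPM with the no-target hairpin.

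Lists of genes that NCoR and HDAC3 are known to hold down in other tissues held no called member. Of 29 nuclear receptor and lipid genes, 21 were tested, with 10 positive and 11 negative log2 fold changes, a median of -0.00 and 0 with an unadjusted p under 0.05. Of 19 circadian clock and REV-ERB target genes, 13 were tested, with a median of 0.05 and again 0 with an unadjusted p under 0.05.

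Genes chosen beforehand as cytokine response genes overlapped in level between the hairpin groups, except Id1. Neither group has an unstimulated library, so the response itself was not measured in them. Cish, a feedback inhibitor and STAT5 target, had 438, 436 and 680 CPM in the HDAC3 knockdown and 338 to 686 CPM with the no-target hairpin, against 12.3 to 23.9 CPM in deprived wild type. Osm, the cytokine oncostatin M, had 1358, 1090 and 323 CPM in the knockdown and 214 to 2306 CPM with the no-target hairpin. Myc had 1873, 1326 and 1071 CPM and 856 to 1823 CPM. Socs1, Socs2, Socs3, Pim1, Bcl2l1, Mcl1, Egr1 and Egr2 also overlapped between the groups, with log2 fold changes of -0.32 to 0.30. Id1, an inhibitor of E proteins, had 168, 119 and 167 CPM in the knockdown, against 180, 241, 196, 172 and 228 CPM with the no-target hairpin, just without overlap (log2 fold change -0.43, SE 0.29, adjusted p = 0.870). None of these 12 genes was called by edgeR between the hairpin groups. In stimulated against deprived wild type, Socs2 and Bcl2l1 were not called either (log2 fold changes 0.34 and 0.43, adjusted p of 0.295 and 0.569, edgeR). The others were called higher there.

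In wild type, IL3 stimulation changed 461 genes (3.82%). Of the 217 genes that it induced at least 2-fold, 0 were called in the HDAC3 knockdown, 7 were higher and 3 lower at an unadjusted p under 0.05 (2.48% and 3.21% of all genes were, so these counts are near or below the background), and 127 had a positive log2 fold change, with a median of 0.07. Without the outside-rich libraries the median was -0.18, and within those libraries the median difference of mean log2 CPM was 0.21. Of 41 genes that IL3 repressed, 0 were called, 3 were lower at an unadjusted p under 0.05, and the median was 0.08. Over all 12073 genes the median was 0.00. The wild-type libraries that define these sets are not among the 8 compared.

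No granule gene of eosinophils or neutrophils passed the test, though the fitted differences all had the same sign. Of 21 genes on the list, 15 were tested, all with a negative log2 fold change and a median of -2.97, but 0 were called and 4 (Prg2, Prg3, Epx and Ear6) had an unadjusted p under 0.05 (3.21% of all genes were lower at that p). Prg2, the eosinophil major basic protein, had 18.7, 24.5 and 9.84 CPM in the knockdown, against 46.6, 496, 170, 103 and 58.8 CPM with the no-target hairpin, without overlap between groups (log2 fold change -3.32, SE 0.93, adjusted p = 0.430, edgeR). Epx, the eosinophil peroxidase, had 20.1, 53.2 and 6.24 CPM in the knockdown, against 53.2, 540, 280, 46.1 and 69.7 CPM with the no-target hairpin, with overlap. No-target replicate 2 was the highest in both genes, and it held most of the no-target reads of the neutrophil genes Ltf, Ngp, S100a8 and S100a9. Summed over the list, the levels were 39.5 to 118 CPM in the knockdown and 166 to 1414 CPM with the no-target hairpin. Without no-target replicate 2 the median of the list was -0.47, and among the outside-rich libraries alone it was -0.98.

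Against the other knockdowns the eosinophil genes did pass the test. Prg2 had 246 to 1857 CPM in the LSD1, 608 to 2303 CPM in the STAT5A and 717 to 1003 CPM in the STAT5B knockdown, and 75.5 to 505 CPM in stimulated wild type. Its level was -5.75 (log2, SE 1.03, adjusted p = 0.00379, edgeR) relative to the mean of the other knockdowns. Epx, Prg3 and Ear6 were also lower, by -4.60, -5.31 and -5.03 (adjusted p of 0.0104, 0.00771 and 0.0108). Prg2 in every STAT5A and STAT5B knockdown library lay above the 46.6 to 496 CPM of the no-target libraries, while the LSD1 knockdown overlapped them. The Prg2 difference from the other knockdowns thus also holds their higher level. With a term for outside-rich libraries Prg2 still passed (-5.10, adjusted p = 0.0298), while Epx, Prg3 and Ear6 did not (adjusted p of 0.0631 to 0.0937). Without those libraries none of the 4 passed (0.132 to 0.261).

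Mast cell and basophil genes were mixed. Of 24 on the list, 18 were tested, with 12 positive log2 fold changes and a median of 0.22, 0 called, and 4 higher at an unadjusted p under 0.05 (2.48% of all genes were), which were Alox5, Il6, Slc18a2 and Ptgs1. Il6, an inflammatory cytokine, had 195, 483 and 265 CPM in the knockdown, against 148, 62.6, 149, 80.0 and 130 CPM with the no-target hairpin, without overlap between groups (log2 fold change 1.46, SE 0.51, adjusted p = 0.693). Slc18a2, the transporter that loads amines into granules, had 1024, 2041 and 1570 CPM and 822 to 1382 CPM. Kit had 2 reads in the knockdown and 0 with the no-target hairpin, and Fcer1a had none in either group. Of the 18 monocyte and macrophage markers tested, 0 were called and 15 had negative log2 fold changes, with a median of -0.50. Clec7a, a receptor for fungal glucans, had 4.22, 4.76 and 1.32 CPM in the knockdown and 5.15 to 13.6 CPM with the no-target hairpin.

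Genes of energy metabolism were mostly lower, without any call. Of 28 tested genes of glycolysis and the hypoxia response, 0 were called, 12 were lower and 0 higher at an unadjusted p under 0.05 (3.21% of all genes were lower at that p), and 23 had negative log2 fold changes, with a median of -0.44. Pfkl, a phosphofructokinase, had 101, 97.6 and 103 CPM in the knockdown, against 103, 412, 209, 146 and 263 CPM with the no-target hairpin. Aldoa, the glycolytic aldolase, had 592, 730 and 1090 CPM and 741 to 2287 CPM, with overlap. No-target replicate 2 was again the highest library, and without it the median was -0.30. The 69 tested subunits of oxidative phosphorylation all had negative log2 fold changes, with a median of -0.30 and 1 lower at an unadjusted p under 0.05. Replicates 1 and 2, which are outside-rich, lay at medians of -0.62 and -0.68 and replicate 3 at 0.26, and without the outside-rich libraries the median was -0.03. Of 78 ribosomal protein genes, 66 had negative log2 fold changes (median -0.12), with medians of -0.61 and -0.55 in replicates 1 and 2 and 0.59 in replicate 3.

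Genes of DNA replication were mostly higher, without any call. Of 38 tested, 35 had positive log2 fold changes, with a median of 0.23, 0 were called and 9 were higher at an unadjusted p under 0.05 (2.48% of all genes were). Uhrf1, which keeps DNA methylation through replication, had 442, 373 and 391 CPM in the knockdown, against 394, 206, 266, 249 and 274 CPM in no-target libraries (log2 fold change 0.53, SE 0.15, adjusted p = 0.430, edgeR). Mcm3, a subunit of the replicative helicase, had 514, 498 and 769 CPM and 346 to 524 CPM. The median was 0.43 without the outside-rich libraries and 0.06 within them. Of 39 genes of ribosome biogenesis, 33 had positive log2 fold changes (median 0.26), and 5 were higher at an unadjusted p under 0.05. Nop56, a core protein of snoRNPs, had 244, 139 and 178 CPM in the knockdown and 87.7 to 214 CPM with the no-target hairpin. None of the 32 mitosis genes was called by edgeR (2 with an unadjusted p under 0.05), and their median was -0.03.

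**Figure D5:**
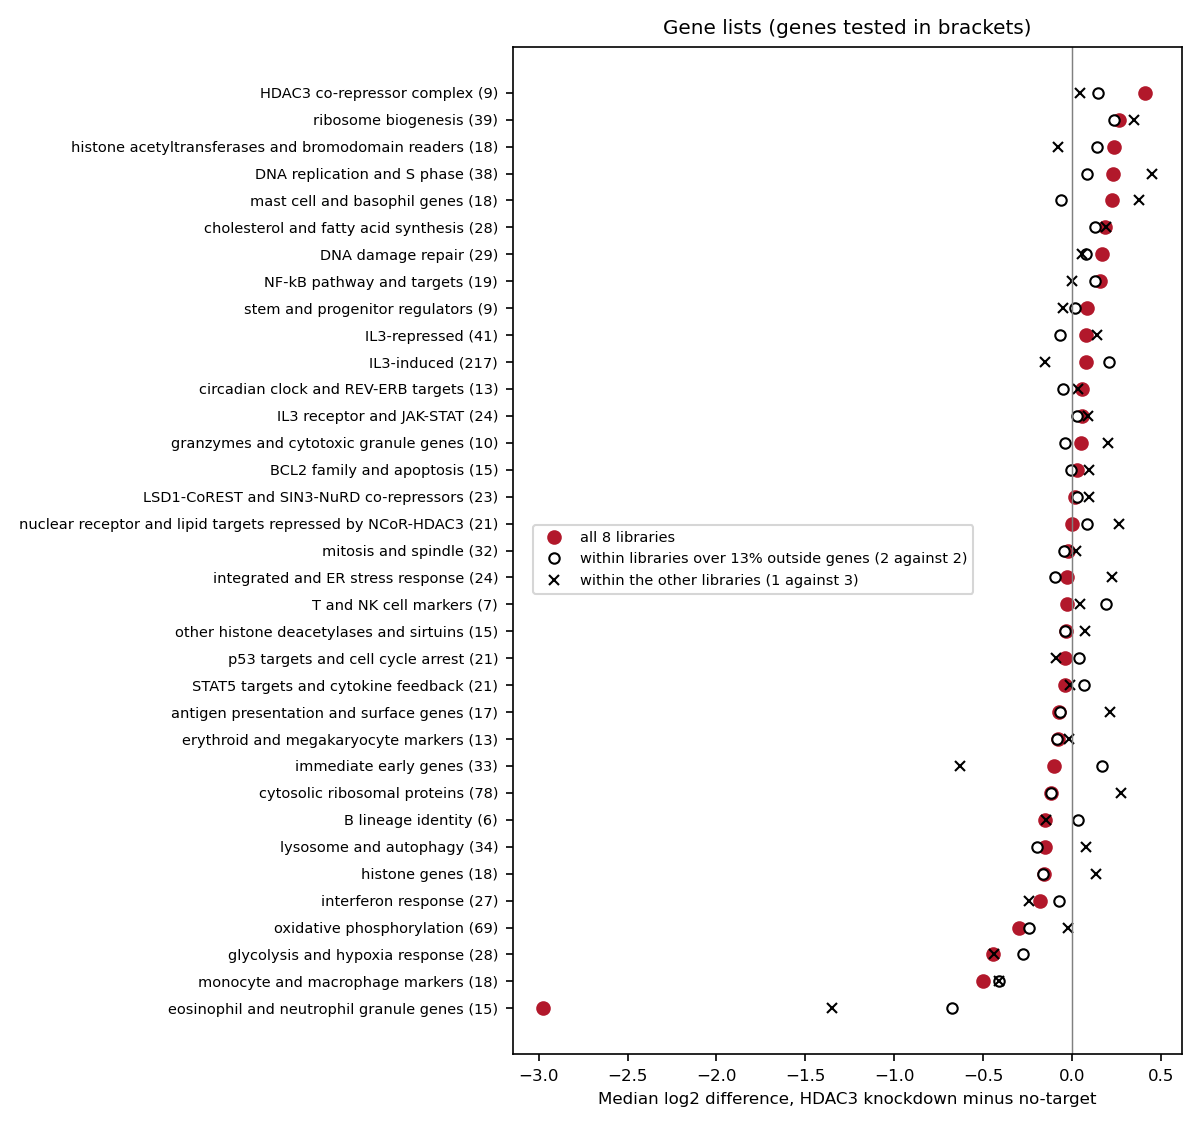
Median log2 difference of the tested members of each gene list, HDAC3 knockdown minus no-target, with the number tested in brackets. Red points are fitted values over the 8 libraries; open points and crosses are differences of mean log2 CPM within the outside-rich libraries (2 against 2) and within the others (1 against 3). The median of the eosinophil and neutrophil granule list lies lowest, at -2.97, and most other medians lie within 0.5 of 0.

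In the remaining lists no member was called by edgeR, and 0 to 4 members of each had an unadjusted p under 0.05. Of 27 interferon response genes, 19 had negative log2 fold changes (median -0.18). At an unadjusted p under 0.05, 4 of them were lower (3.21% of all genes were). Among these, Gbp3 had 1.75 ± 0.713 CPM in the knockdown and 4.31 ± 1.66 CPM with the no-target hairpin, without overlap. Irf7 had 8.43 ± 0.469 CPM and 13.7 ± 4.08 CPM, with overlap. Of 24 cell cycle arrest and p53 target genes, 21 were tested, with a median of -0.04. Their member Gadd45a, a stress sensor, had 9.92, 12.3 and 11.3 CPM in the knockdown, against 12.7, 26.7, 20.9, 23.4 and 24.6 CPM with the no-target hairpin. Gadd45a was called lower than in the mean of the other knockdowns (-2.33, adjusted p = 0.000941, edgeR). Bcl2, which blocks cell death, had 213, 352 and 258 CPM and 131 to 254 CPM (unadjusted p = 0.0108).

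Set directly against the other knockdowns, the HDAC3 knockdown differed in more genes than against the no-target hairpin, and that count moved with the kind of library. Against the mean of the LSD1, STAT5A and STAT5B knockdowns, 1377 genes were called by edgeR (11.4%), 877 higher (7.26%) and 500 lower (4.14%). Of the HDAC3 knockdown libraries 2 of 3 were outside-rich, and of the other knockdown libraries 1 of 9. With a term for outside-rich libraries 206 genes were called, without those libraries 83, and without HDAC3 knockdown replicate 1, 2 or 3 in turn 139, 256 and 4127. With only the groups compared in the fit 15 were called. Against the LSD1 knockdown alone 99 genes were called (0.82%), 22 higher (0.182%) and 77 lower (0.638%), with 100 under the term, 18 without the outside-rich libraries and 22, 66 and 27 without replicate 1, 2 or 3. With only the groups compared 0 were called by edgeR, with 577 at an unadjusted p under 0.05, and DESeq2 on all libraries called 318. Gfi1b, a transcriptional repressor, was among the lower ones (-3.68, adjusted p = 0.000421). It had 16.9 to 21.8 CPM in the HDAC3 knockdown and 154 to 445 CPM in the LSD1 knockdown. With the no-target hairpin Gfi1b had 21.9 to 69.1 CPM, so all LSD1 knockdown libraries lay above the no-target range. The HDAC3 knockdown libraries lay just below that range, and Gfi1b was not called there (log2 fold change -0.86, adjusted p = 0.861, edgeR). Pik3cd and Itgae were higher than in the mean of the other knockdowns under all of the fits with and without the outside-rich libraries (adjusted p of 0.000941 and 0.00379 with all libraries), and missed the threshold against the LSD1 knockdown alone (0.0636 and 0.0664). Without the outside-rich libraries they passed against the LSD1 knockdown too (0.0431 and 0.00388).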

How the data were processed

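PolyA RNA was measured in libraries made with a TruSeq RNA kit, per the labels' protocols; this kit does not mark strand, so overlapping antisense genes cannot be told apart. The authors deposited a table of unnormalized counts for each library, with whole numbers by gene symbol. The submitters' processing notes name the mm10 build and, as tools, HTSeq 0.5.4p5, TopHat2 2.0.10, Trimmomatic 0.30 and DESeq2 1.2; the counting mode and annotation are not given in the sources used here. The 5 summary lines for reads outside genes entered neither library sizes nor tests and serve only to describe libraries (over 13% outside genes).

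From these counts, all 27 libraries entered 1 edgeR quasi-likelihood fit (R 4.3.3, edgeR 4.0.16) with a mean per group, TMM factors and the filterByExpr filter, which kept 12073 of 24000 genes. Adjusted p-values are Benjamini-Hochberg over all genes tested, called under 0.05. The SE of an edgeR value is its absolute size over the square root of its F statistic, so it is derived from the test. Differences by library use log2 CPM with a prior count of 2. Intervals and the limit of 3 counts cover counting error only, since PCR copies were not told apart. Lists are described by counts and medians, with no test of their own. Genes named were Hdac3, Gzmb, up to 12 rises and 12 falls without overlap and with at least 5 CPM (called genes, then those of smallest p past 0.58 in log2 fold change either way), complex members, 12 cytokine response genes, granule genes and up to 4 members of each of 33 lists. Up to 8 genes of smallest p in the fit on Hdac3 loss were also named. Genes called under other settings were named after their values were seen, and the members and lists were chosen with earlier results of these data known. DESeq2 1.42.0 was an alternative. No 2 replicates were copies: within groups, chi-square over its degrees of freedom ranged from 19.3 to 128. The code was tested on simulated data. Positions are from GENCODE vM21 and promoters from RefSeq.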

Additional observations from a re-analysis of the deposited data

Results flagged for a closer look

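Prg2, Epx, Prg3, Ear6 and the granzymes differed between the HDAC3 and LSD1 knockdowns by the test of the difference itself (edgeR, log2, n = 3 each). Gzmb was 7.66 higher (adjusted p = 0.0130), Gzmc 9.99 (0.0113) and Lfng 1.31 (0.0144) in the HDAC3 knockdown. Prg2 differed by -5.48 (adjusted p = 0.0128), Epx by -5.38 (0.0194), Prg3 by -5.58 (0.0212) and Ear6 by -6.08 (0.0149). With the term for outside-rich libraries these 4 did not pass (adjusted p of 0.0506 to 0.0614), nor without those libraries (0.189 to 0.278). Gzmb did not pass without those libraries (7.92, adjusted p = 0.114), and Gzmc did not by DESeq2 (0.0512). Gzmc had no read in the LSD1 knockdown, so the size of its fitted difference depends on the prior count and is no measurement.

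In 13 of 105 measures 1 no-target library stood apart from the other 4 by Dixon's criterion at 95%, which chance meets in about 1 in 20 groups. In replicate 1 these were Ptgs1 (134.0 CPM), Chaf1a (270.4), Ddx21 (303) and Tsr1 (85.9). In replicate 2 they were Prg2 (496), Prg3 (40.9), Nkg7 (5.095) and Pdia6 (301). Il2ra had 0.760 CPM in replicate 3 and Gzmb 26.6 CPM in replicate 4. In replicate 5 they were Gzmc (0.144), Gfi1b (69.1) and Dusp1 (292). For Gzmc the other 4 libraries had no read, so any read meets the criterion, and its level lies below the 0.170 to 0.405 CPM that those zeros allow. Groups of 3 libraries were not examined in this way.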

How the results depend on the processing

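Against the no-target hairpin 8 genes were called by DESeq2, 8 without the outside-rich libraries and 7 with Hdac3 loss as a graded term. None (0) was called by edgeR with only the groups compared, with the replicate block, with both, within the outside-rich libraries or at an adjusted p under 0.01 (302, 576, 67 and 116 genes at an unadjusted p under 0.05 in the first 4). Leaving out 1 library gave 0 to 9. Against the mean of the other knockdowns the count was 574 without a filter, 15 with only the groups compared, 183 with the block added, 206 with the library term, 83 without the outside-rich libraries, 171 at 0.01 and 139 to 4127 leaving out 1 library. Against LSD1 it was 50, 0 (577 at an unadjusted p under 0.05) and 11 in the first 3 of these, 318 by DESeq2, 18 without the outside-rich libraries, 7 at 0.01 and 22 to 66 leaving out 1 library. Hdac3 missed the threshold at -1.16 with only the groups compared, -1.16 with the replicate block (adjusted p = 0.139), -1.13 with both and -0.74 within the outside-rich libraries, and ranged from -1.54 to -1.03 leaving out 1 library. The IL3-induced median was -0.18 without the outside-rich libraries. Deviations of libraries with the same replicate number had r of 0.666, -0.442 and -0.705, and only replicate 1 correlated best with its own number. In replicates 2 and 3 the knockdown and no-target libraries differed in kind (outside-rich or not). These values therefore cannot decide whether the numbers pair the libraries.

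Of 102 other named genes, 85 kept their direction in every alternative, and 17 reversed in at least 1, none with an absolute log2 fold change above 0.478. With the replicate block Cish was 0.092 and Osm 0.16; with only the groups compared as well, Cish was 0.20, Osm 0.20, Socs1 0.071, Socs2 0.055 and Pim1 -0.041. Cish was 0.00999 with RLE factors, 0.0099 by DESeq2 and 0.0070 with only the groups compared. With the library term Cish was 0.195, Socs1 0.059, Pim1 -0.11, Srgn 0.080 and Zbtb33 -0.078. Without the outside-rich libraries Cish was 0.13, Socs1 0.18, Socs3 -0.70, Pim1 -0.36, Lamp1 0.13, Srgn 0.26, Coro2a -0.21 and Zbtb33 -0.19. Within them Cish was 0.26, Osm 0.020, Mcl1 0.069, Egr2 0.0096 and Ctsc -0.00070. With the graded term Cish was 0.10, Socs3 -0.59 and Srgn 0.10. Leaving out 1 library, ranges were -0.41 to 0.33 for Gps2, -0.27 to 0.82 for Coro2a, -0.085 to 0.46 for Zbtb33, -0.23 to 0.15 for Kdm4a, -0.26 to 0.12 for Cish, -0.50 to 0.082 for Socs1, -1.02 to 0.70 for Socs3, -0.70 to 0.11 for Osm, -0.063 to 0.34 for Pim1, -0.014 to 0.44 for Myc, -0.37 to 0.56 for Bcl2l1, -0.79 to 0.10 for Egr2, -0.45 to 0.0063 for Lamp1 and -0.49 to 0.17 for Srgn. The causes were not tested. Depth limits Gzmc, with 2 reads in the no-target libraries.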
